A study of Saccharomyces cerevisiae with 16 samples.

Results

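The 10 genes described here take up, make and use methionine and S-adenosylmethionine (SAM) in the budding yeast Saccharomyces cerevisiae. They were chosen by name with the ratio of condition B to condition A in each of 4 deposited tables in view, so those ratios describe the genes and test nothing about them. SAM3 (YPL274W, chrXVI:22938-24701, plus strand), MMP1 (YLL061W, chrXII:17956-19707, plus strand) and MUP1 (YGR055W, chrVII:599417-601141, plus strand) encode permeases of the plasma membrane. MET3 (YJR010W, chrX:456239-457774, plus strand), MET14 (YKL001C, chrXI:438777-439385, minus strand), MET16 (YPR167C, chrXVI:876847-877632, minus strand) and MET10 (YFR030W, chrVI:213312-216419, plus strand) encode enzymes of sulfate assimilation. MET6 (YER091C, chrV:339864-342167, minus strand), SAM1 (YLR180W, chrXII:515262-516410, plus strand) and SAM2 (YDR502C, chrIV:1453310-1454464, minus strand) encode the enzymes that make methionine and SAM. The positions are those of the coding sequences in RefSeq's R64 assembly, the sacCer3 build of the study. All 10 were listed in each table, out of 6834 features for 3MBPP1 in WT, 6258 for 3MBPP1 in hrr25as and 6760 in each CMK table.

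Yeast reduces sulfate to sulfide in a chain of enzymes, fixes the sulfide into homocysteine, methylates homocysteine to methionine and joins methionine to the adenosyl group of ATP to give SAM, the main methyl donor of the cell. Transcription of much of this pathway is driven by the activator Met4, which has no DNA binding of its own and is brought to promoters by Cbf1 or by the related zinc finger proteins Met31 and Met32. When methionine and SAM are plentiful, the ubiquitin ligase subunit Met30 holds Met4 inactive.

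The study compared cells that carry different forms of the casein kinase Hrr25 after 1 hour with an inhibitor or with the solvent DMSO. In all 3 strains the chromosomal HRR25 gene is replaced by the kanMX4 marker in a his3Δ leu2Δ ura3Δ background, also in the controls, and the kinase comes from a plasmid. WT cells carried HRR25 on the URA3 plasmid pRS316, hrr25as cells carried the I82G form on the LEU2 plasmid pRS315, and hrr25is cells carried a form with I82G and I23C on pRS315. The 16 samples formed 8 groups of 2, with WT and hrr25as cells given DMSO or 3MBPP1 and WT and hrr25is cells given DMSO or CMK, in rich YPD medium. Sample titles name 3MBPP1, whereas the shared treatment text names only DMSO and CMK, and no dose is stated. The headers of the tables name condition A and condition B without saying which is DMSO, so each difference is given as condition B against condition A, and the direction of an inhibitor's own effect is not given here. Whole reads of every library were recovered from the deposited means. Libraries are therefore known only by table, condition and size factor, the authors' scaling divisor, and the first value of each pair below is that of the library with the smaller one.

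The upstream regions of the members are shown first, because those of 9 members hold a word read by the Met4 complexes. The regions are those of assembly R64 (sacCer3), read 5′ to 3′ on the strand of the gene, with the word in capitals, and each window ran from 600 bases before the start codon to 50 after it. The word AAACTGTGG of Met31 and Met32 was searched on both strands and stood in 6 of the 10 member windows, which are the following, against 1.05% of 6018 windows over all genes.
SAM1 (chrXII:514960-515018, plus strand, 277 bases before the start codon): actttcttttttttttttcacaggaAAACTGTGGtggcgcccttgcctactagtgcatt
SAM2 (chrIV:1454731-1454789, minus strand, 300 bases before the start codon): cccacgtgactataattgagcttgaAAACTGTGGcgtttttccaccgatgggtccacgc
MET6 (chrV:342441-342499, minus strand, 307 bases before the start codon): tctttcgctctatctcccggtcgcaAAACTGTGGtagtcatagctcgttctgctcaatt
MMP1 (chrXII:17759-17817, plus strand, 172 bases before the start codon): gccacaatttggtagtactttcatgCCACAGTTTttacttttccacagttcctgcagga
MUP1 (chrVII:598928-598986, plus strand, 464 bases before the start codon): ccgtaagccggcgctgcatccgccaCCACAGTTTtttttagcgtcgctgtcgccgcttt
MET3 (chrX:455961-456019, plus strand, 253 bases before the start codon): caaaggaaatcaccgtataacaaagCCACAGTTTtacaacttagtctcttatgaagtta
In MMP1, MUP1 and MET3 the word lies on the opposite strand and is printed as its reverse complement. The Cbf1 word CACGTG, which is its own reverse complement, stood in 6 member windows (MET3, MET14, MET16, MET10, MET6 and SAM2), against 7.38% of all windows. It is shown for the 3 of these genes that had no AAACTGTGG. In each printed stretch the capitals mark 1 match. The MET10 stretch holds a further CACGTG, 231 bases before the start codon, and the SAM2 stretch holds the CACGTG of that gene, 323 bases before it, both in lower case.
MET14 (chrXI:439583-439638, minus strand, 228 bases before the start codon): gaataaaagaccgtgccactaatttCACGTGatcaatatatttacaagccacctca
MET16 (chrXVI:877780-877835, minus strand, 178 bases before the start codon): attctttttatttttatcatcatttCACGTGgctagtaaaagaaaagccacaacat
MET10 (chrVI:213038-213093, plus strand, 249 bases before the start codon): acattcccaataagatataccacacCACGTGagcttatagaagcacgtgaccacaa
At least 1 of both words stood in 9 members, against 8.14% of all windows, and SAM3 was the member with neither. The words do not overlap each other. The word TGACTC of the general amino acid control activator Gcn4 stood in 3 members, MUP1, MET16 and MET6, and in 16.8% of all windows. A window of 250 bases before and 50 after the start codon held CACGTG in 3 members, AAACTGTGG in 1 and TGACTC in 2. The shares over all windows of that size were 2.91%, 0.432% and 7.96%. The longer window was chosen after the member counts of the shorter one were seen. A match is a stretch of letters and was not tested as a binding site. Sequences are from RefSeq.

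SAM1 and SAM2 are duplicate SAM synthetases whose coding sequences are identical at 82.8% of 1155 aligned positions, with a longest identical run of 59 bases. The 100 bases around this run, about the length of a read, are printed to show what tells their reads apart there, with the 5 differing bases in capitals.
SAM1 (chrXII:515940-516039, plus strand): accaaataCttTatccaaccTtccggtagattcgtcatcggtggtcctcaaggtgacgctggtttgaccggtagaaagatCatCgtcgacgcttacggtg
SAM2 (chrIV:1453681-1453780, minus strand): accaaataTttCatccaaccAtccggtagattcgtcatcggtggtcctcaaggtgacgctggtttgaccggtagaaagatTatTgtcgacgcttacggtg
No stretch of 100 bases of any member occurred in another gene, so a full-length read without errors belongs to 1 of them. SAM3 and MMP1, the other related pair, were identical at 66.9% of positions with a longest run of 20 bases. No annotated gene overlapped a member.

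Depth ran from 4275991 to 34122412 counted reads per library, and a member had between 60 and 11317 reads in a library. The members together took 0.0546% to 0.295% of the reads of a library, and 95% Wilson intervals, which cover counting error only, reached at most 0.00514 percent to either side. The genes of small nucleolar RNA and spliceosomal RNA held 31.4% to 38.2% of reads for 3MBPP1 in WT, 5.14% to 6.39% for 3MBPP1 in hrr25as and 9.14% to 18.1% in the CMK tables. The library of 34122412 reads stood in condition B of both CMK tables, equal at 6760 of 6760 features, so 15 libraries are distinct. In that library URA3, the marker of the WT plasmid, lay at 32168 normalised reads and LEU2, the marker of the other plasmid, at 8.68. The other 3 libraries of the hrr25is table had 43.3 to 114 for URA3 and 1315 to 1961 for LEU2, so the shared library goes against its hrr25is label and the hrr25is results of the members are given with and without it. The libraries labelled WT in the 3MBPP1 table also went against their labels, with LEU2 at 484 to 657 normalised reads, where the CMK table of WT had 2.25 to 24.2. On that separate scaling, URA3 had condition means of 1296 and 1204 there, against 33107 and 27249 for CMK in WT. HRR25 had means of 1593 and 1706 there, against 13036 and 13750 for CMK in WT. The labels do not say whether replicates were separate cultures, so a p-value here covers only the spread from library to library, which may be technical.

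Per length, SAM1 and MET6 had the highest medians of the 10 genes, each in other libraries. Levels compared between genes are reads per 1000 coding bases and 1000000 counted reads of the library (RPKM). Over the 15 libraries, the lowest, median and highest RPKM were 75.6, 233 and 429.9 for SAM1. MET6, the methionine synthase that needs no cobalamin, had 29.0, 184 and 459 RPKM. SAM1 ranked first in the 7 CMK libraries and MET6 in 7 of the 3MBPP1 libraries. SAM2 followed at 36.4, 130.1 and 276 RPKM. MUP1, the high-affinity methionine permease, had 47.2, 66.3 and 245 RPKM. MET14, the kinase of adenosine phosphosulfate, had 35.6, 57.2 and 255 RPKM and ranked first in the remaining library, 1 of the 4 labelled WT in the 3MBPP1 table. In all 4 of those libraries MET14 and SAM2 were above SAM1. MET10, the alpha subunit of sulfite reductase, had 19.9, 45.0 and 85.9 RPKM. The remaining genes were lower. SAM3, the SAM permease, had 17.8, 38.7 and 98.2 RPKM. MMP1, the permease of S-methylmethionine, had 13.2, 23.5 and 56.9 RPKM. MET16, the reductase of phosphoadenosine phosphosulfate, had 11.6, 19.9 and 109 RPKM. MET3, the ATP sulfurylase that starts the assimilation chain, had 11.5, 19.4 and 84.6 RPKM. Each gene in this order overlapped its neighbours over the libraries. In a culture, fewer cells transcribing a gene and less RNA per cell cannot be told apart.

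Sulfate assimilation held a larger share of the 10 genes in the 3MBPP1 table of WT than in the others. MET3, MET14, MET16 and MET10 took 36.6 to 45.9 percent of the summed RPKM of the 10 genes for 3MBPP1 in WT, against 10.4 to 16.3 percent for 3MBPP1 in hrr25as. The CMK libraries had 14.7 to 21.2 percent in WT and 12.3 to 25.5 percent in the 3 libraries found only in the hrr25is table. The 4 libraries labelled WT in the 3MBPP1 table were above all other libraries, with no overlap. For MET16 the level was 88.5 to 109 RPKM there, 11.6 to 19.9 in hrr25as, 17.9 to 40.6 in the CMK table of WT and 17.2 to 23.5 in that of hrr25is. For MET14 the level was 209 to 255 RPKM there and at most 84.6 in any other library. MET3 had 49.3 to 84.6 RPKM there and at most 41.9 in any other library. MET10 did not follow, with 45.0 to 69.9 RPKM there and 55.0 to 85.9 in hrr25as. The share also depends on the other genes of the sum, of which SAM1 had 75.6 to 163.9 RPKM there and 155.8 to 429.9 in hrr25as. The same tables differed at MET17, the enzyme that fixes sulfide into homocysteine and without which yeast needs an organic sulfur source. MET17 lay at 203 to 344 RPKM for 3MBPP1 in WT, at 0.0659 to 0.939 for CMK in WT and at 0.0445 to 0.149 for CMK in hrr25is, and it was not listed for 3MBPP1 in hrr25as. The labels name no change at MET17. LYS2, which the labels do not name, had condition means of 624 and 581 normalised reads for 3MBPP1 in WT. Its means were 5.40 and 15.6 for CMK in WT and 15.1 and 9.18 for CMK in hrr25is, on a separate scaling, and it was not listed for 3MBPP1 in hrr25as. The 4 libraries labelled WT in the 3MBPP1 table also had the highest shares of small nucleolar and spliceosomal RNA. The levels of MET17 and LYS2, that share, any other difference in strain background and the table itself cannot be told apart.

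The ratio of the duplicate synthetases also set the 3MBPP1 tables apart from each other and from the CMK tables, which overlapped. SAM1 over SAM2, as a ratio of RPKM within a library, was 0.581 to 0.804 for 3MBPP1 in WT, 0.888 to 1.56 for 3MBPP1 in hrr25as, 2.86 to 3.45 for CMK in WT and 2.18 to 2.91 for CMK in hrr25is. SAM2 was the higher of the pair in each library labelled WT of the 3MBPP1 table, and SAM1 was the higher in every CMK library. In hrr25as the ratio crossed 1 between the conditions, from 1.56 and 1.44 in condition A to 0.951 and 0.888 in condition B. A ratio within a library does not depend on its size factor.

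**Figure D1:**
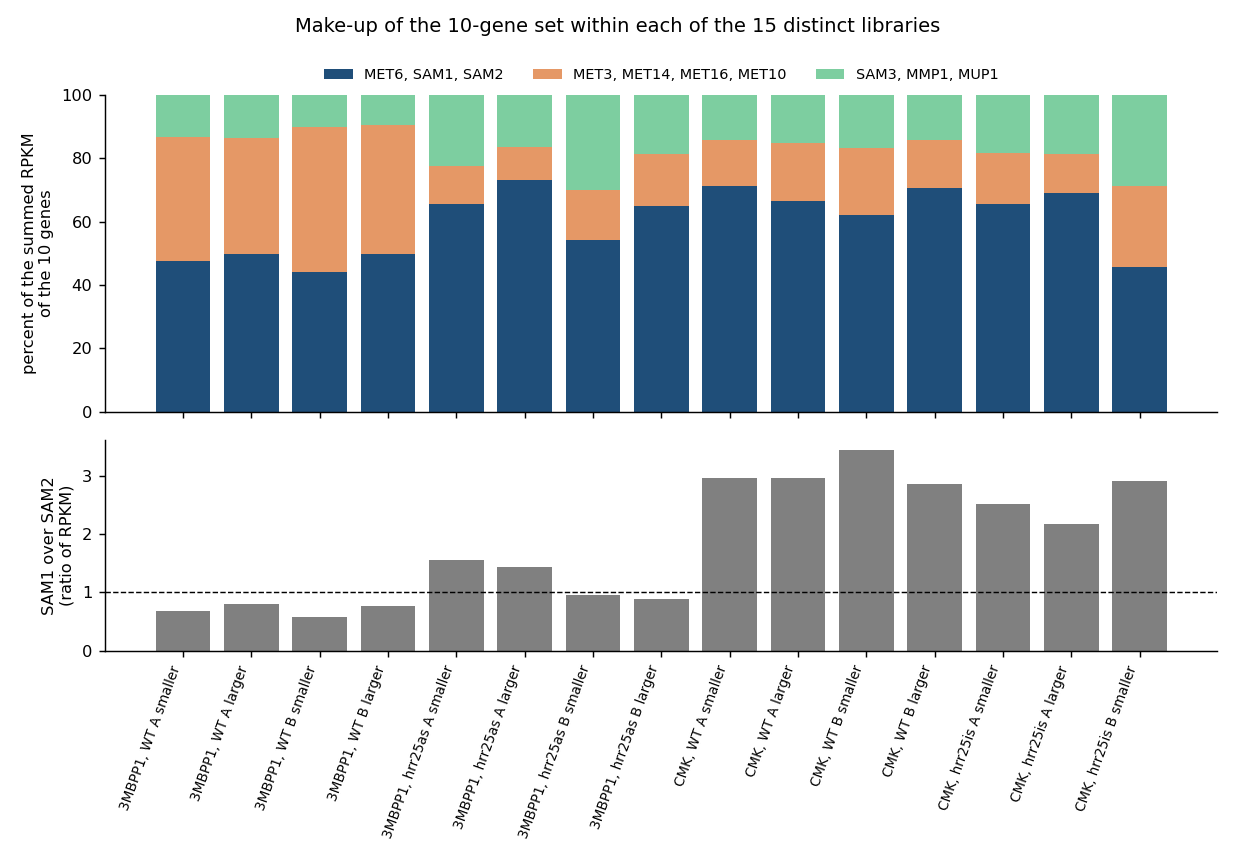
Upper bars give the percent of the summed RPKM of the 10 genes taken by the synthesis, sulfate assimilation and permease genes in each of the 15 libraries, and lower bars the ratio of SAM1 to SAM2 in RPKM, with a dashed line at 1. The 4 libraries labelled WT of the 3MBPP1 table have the highest sulfate assimilation shares and the lowest ratios, 0.581 to 0.804.

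For 3MBPP1 in WT, the 3 permease genes fell and the 7 enzyme genes did not pass the authors' test. In the authors' deposited table, 3 of the 10 members were lower in condition B at an adjusted p under 0.05 and 0 were higher, where 4.59% and 2.78% of all features were called lower and higher. Since the table helped to choose the genes, nothing is read from that count. SAM3 lay at 1152 and 954 normalised reads in the condition A libraries and at 393 and 368 in those of condition B. Both condition B libraries were below both of condition A by far more than the libraries of a condition differed. The authors' deposited table gives a fall of SAM3 by 1.47 on the log2 scale with an adjusted p of 2.90e-10, and limma on the recovered reads gave a log2 difference of -1.46 ± 0.14 (SE). MMP1 lay at 414 and 475 normalised reads in condition A and 295 and 240.5 in condition B. In the authors' deposited table it fell by 0.73 on the log2 scale with an adjusted p of 0.0101. MUP1 lay at 2080.1 and 2362 in condition A and at 1199.7 and 1550.1 in condition B. In the authors' deposited table it fell by 0.69 with an adjusted p of 0.00558. The groups of both genes were apart, though the condition B libraries of MUP1 differed from each other more than those of condition A. With limma, SAM3 passed the threshold under every setting tried. MMP1 passed it with all libraries (adjusted p = 0.0371) and lost it without the smaller or the larger condition A library or without the larger condition B library, and MUP1 lost it without either condition A library or the smaller condition B library. Leaving out the larger condition B library brought in MET3, MET6, SAM1 and SAM2, at limma log2 differences of -0.70, -0.72, -0.92 and -0.57, with 1 library in condition B. MMP1 and MUP1 both lost it when libraries were scaled by their total reads, and over all settings the limma adjusted p reached 0.329 for MMP1 and 0.394 for MUP1. The levels of the related permeases lay closer together in condition B. SAM3 over MMP1, as a ratio of RPKM, was 2.76 and 1.995 in condition A and 1.32 and 1.52 in condition B.

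The 7 enzyme genes of that table had smaller differences, and 2 of them overlapped between the conditions. SAM1 lay at 1892 and 2265 normalised reads in condition A and 1091 and 1698 in condition B. MET6 lay at 8163 and 8452 in condition A and at 5026 and 7394 in condition B. SAM2 lay at 2766 and 2832 in condition A and at 1887 and 2212 in condition B. In each of these 3 genes both condition B libraries were below condition A, and the smaller one was the lower of the pair. MET3 had 1535 and 1562 normalised reads in condition A and 951 and 1346 in condition B. MET14 had 1986 and 1870.0 in condition A and 1594 and 1602 in condition B. MET16, with 1019 and 873 against 920.1 and 895, and MET10, with 2224 and 2293 against 1757 and 2263, were the 2 that overlapped. In all, 8 of 10 members were lower in condition B with no overlap, and 0 were higher, as were 26.7% and 27% of all features. The authors' deposited table gives these 7 genes log2 differences from -0.58 for SAM1 to -0.06 for MET16. The median of the 10 deposited log2 differences was -0.44, against -0.00 over all features. Scaling by total reads moved the median of all features by 0.21 on the log2 scale and turned MET16 and MET10 to 0.16 and 0.04, and the members' median became -0.24. Over all features the authors' deposited table called 190 higher and 314 lower, and limma called 231 and 344 at the authors' size factors and 201 and 163 with total reads.

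**Figure D2:**
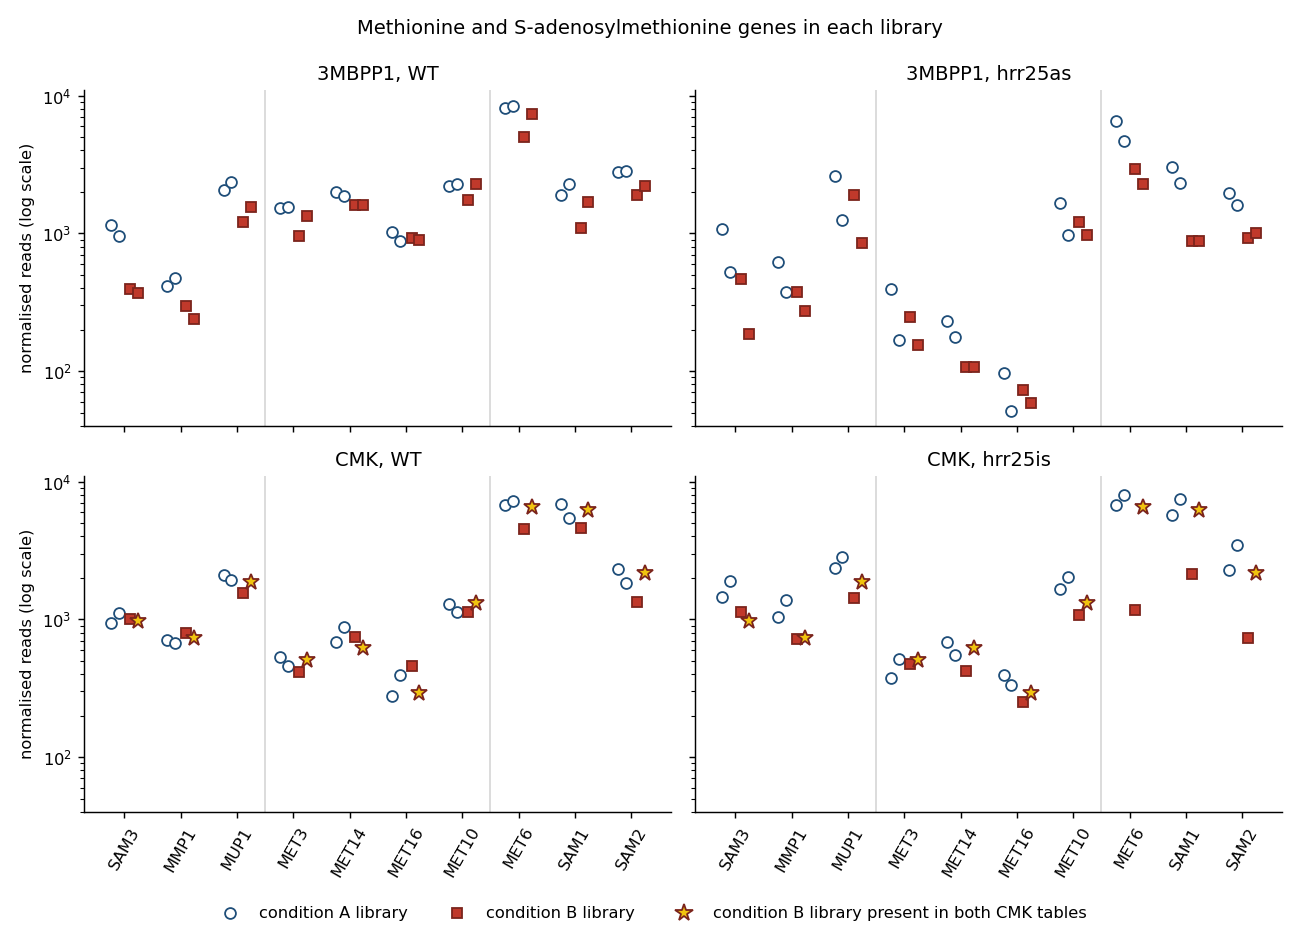
Normalised reads of each member (log scale) in every library of the 4 tables, by condition, each point 1 library; the library present in both CMK tables is marked. SAM3 in the 3MBPP1 table of WT and SAM1 in that of hrr25as show gaps between the conditions, while in hrr25is the shared library lies near condition A for MET6, SAM1 and SAM2.

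For 3MBPP1 in hrr25as, SAM1 fell and no other member passed the authors' test. The authors' deposited table called 1 member lower and 0 higher, where 3.12% and 1.2% of all features were called lower and higher. SAM1 lay at 3048 and 2306 normalised reads in condition A and 877 and 886 in condition B. The condition B libraries were nearly equal and both well below condition A. In the authors' deposited table SAM1 fell by 1.60 on the log2 scale with an adjusted p of 1.28e-04. With limma its log2 difference was -1.59 ± 0.20 (SE), and it stayed under the threshold at every setting, with an adjusted p of at most 0.0456. MET6, the step before SAM, lay at 6530.0 and 4655 in condition A and at 2927 and 2295 normalised reads in condition B. SAM2 lay at 1966 and 1607 in condition A and at 927 and 1003 in condition B. Both were apart between the conditions, and the authors' deposited table gives log2 differences of -1.10 (adjusted p = 0.0735) for MET6 and -0.89 (adjusted p = 0.113) for SAM2. MET14 was the one other enzyme gene apart, at 232 and 176 against 106 and 106 normalised reads. Its deposited log2 difference in the authors' deposited table was -0.94 with an adjusted p of 0.255.

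The permease genes differed in hrr25as between libraries of a condition about as much as between conditions. SAM3 lay at 1069.6 and 524 normalised reads in condition A and 467 and 186 in condition B. These groups were apart, and the authors' deposited table gives a log2 difference of -1.29 with an adjusted p of 0.725. MUP1 lay at 2608 and 1239.8 in condition A and at 1889.6 and 852 normalised reads in condition B. MMP1 lay at 615 and 374 in condition A and at 377 and 272 in condition B. For MUP1 and MMP1 the smaller library of condition B was above the larger library of condition A. In all, 7 of 10 members, and 38.6% of all features, were higher in the library with the smaller size factor in both conditions, the others being MET14, SAM1 and SAM2. MET3 had 397 and 168 normalised reads against 247 and 155. MET16 had 96.7 and 51.4 against 73.3 and 58.9, and MET10 had 1648 and 966 against 1205 and 967. These 3 genes overlapped between conditions. Altogether 5 members were lower in condition B with no overlap, and 0 were higher, as were 23.9% and 24.4% of all features. The members' median of the deposited log2 differences was -0.75, against 0.02 over all features. With all libraries limma called 1 member, SAM1, and SAM1 stayed the only one without the smaller condition A library. Leaving out any of the other 3 libraries gave 3 or 4. Without the larger condition A library SAM3 and MET6 were added, at log2 differences of -1.86 and -1.33. Without the smaller condition B library SAM3, MUP1 and MET6 were added, at -2.01, -1.08 and -1.26. Without the larger condition B library MET6 and SAM2 were added, at -0.91 and -0.94. Each of these fits leaves 1 library in a condition and takes much of a gene's spread from the other features. They do not measure the spread of a gene such as SAM3, whose condition A libraries lay at 1069.6 and 524. Scaling by total reads moved the median of all features to 0.33 and the members' median to -0.42, with MET16 and MET10 at 0.21 and 0.09. Over all features the authors' deposited table called 75 higher and 195 lower, and limma called 67 and 149 at the authors' size factors and 53 and 17 with total reads.

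For CMK in WT, no member passed the authors' test in the deposited table, in which 0% of features were called lower and 0.133% higher. At an unadjusted p under 0.05 the authors' deposited table also held 0 members, where 1.01% of all features had one, and limma with all libraries also called 0. SAM3 lay at 946 and 1119.6 normalised reads in condition A and 1005 and 974 in condition B, where the second value of condition B is the shared library. SAM1 lay at 6839 and 5430.5 in condition A and at 4603 and 6198 in condition B. Both genes overlapped between conditions. MUP1, with 2118 and 1931 against 1558 and 1877, and MET6, with 6799 and 7222 against 4530.3 and 6549.8, were lower in condition B with no overlap, as were 12.8% of all features. MMP1 was higher with no overlap, at 708 and 669.5 against 792 and 727, as were 12.6% of features. SAM2 had 2316 and 1844 normalised reads in condition A and 1343 and 2176 in condition B. The sulfate assimilation genes MET3 (535 and 456 against 415 and 506), MET14 (689 and 877 against 743 and 619) and MET16 (278 and 394 against 462 and 293) overlapped too. MET10 had 1284 and 1125 against 1125 and 1325. The authors' deposited table gives the 10 genes log2 differences from -0.34 for MET6 to 0.17 for MET16, with a median of -0.14 against 0.01 over all features. Without the shared library, which leaves 1 library in condition B, limma called 0 members, where it called 3.61% of features lower and 7.8% higher. Against that 1 library 6 members were lower and 2 higher with no overlap, as were 41.6% and 43% of all features. The log2 difference was then -0.63 ± 0.33 (SE) for MET6 and -0.62 ± 0.31 for SAM2.

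For CMK in hrr25is, the deposited values of MET6, SAM1 and SAM2 average 2 condition B libraries that lie far apart. The authors' deposited table called 0 members, where 0.0296% of features were called lower and 0.0148% higher. SAM3, MMP1 and MUP1 had an unadjusted p under 0.05 in the authors' deposited table, as had 2.28% of all features, and limma with all libraries also called 0. MET6 lay at 6750.3 and 8059 normalised reads in condition A, at 1165 in the condition B library found only in this table and at 6549.8 in the shared library. SAM1 lay at 5741 and 7483, at 2124 and at 6198, in the same order. SAM2 lay at 2293 and 3453, at 733 and at 2176. In these 3 genes of methionine and SAM synthesis the library found only in this table was far below condition A, while the shared library was near or within it. The authors' deposited table gives log2 differences of -0.94, -0.67 and -0.98 for MET6, SAM1 and SAM2, each with an adjusted p of 1. Without the shared library, limma gave log2 differences of -2.66 ± 0.23 (SE) for MET6, -1.63 ± 0.23 for SAM1 and -1.94 ± 0.21 for SAM2. That leaves 1 library in condition B, which is assumed to vary like those of condition A, so these values have no replicate behind them. With the shared library, which goes against its hrr25is label, as the lone one of condition B, the limma log2 differences of SAM3 and MMP1 were -0.78 and -0.73.

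The permeases and MET10 differed less in that library. MUP1 lay at 2346 and 2844 normalised reads in condition A, 1419 in the condition B library found only in this table and 1877 in the shared one. In the same order, SAM3 lay at 1466 and 1915, at 1141 and at 974. MMP1 lay at 1049 and 1392, at 718 and at 727. In these 3 genes both condition B libraries were below both of condition A, but 1 of them is the shared library, which goes against its hrr25is label. Condition A of WT in the other CMK table lay at 2118 and 1931 for MUP1, 946 and 1119.6 for SAM3 and 708 and 669.5 for MMP1. A difference between strains and one between conditions cannot be told apart in the shared library. MET10 had 1656 and 2020.3 in condition A and 1080.3 and 1325 in condition B. MET14 had 681 and 551 against 421 and 619, and MET16 had 395 and 336 against 251 and 293. MET3 overlapped between conditions, with 378 and 515 against 477 and 506. With the shared library 7 members were lower in condition B with no overlap, as were 17.7% of all features. Without it 9 were lower and 0 higher, as were 39.6% and 39.9% of features, and limma called 6 lower (MMP1, MUP1, MET10, MET6, SAM1 and SAM2), where it called 7.5% of all features lower and 5.25% higher. The members' median of the log2 differences was -0.66 with the shared library, as deposited, and -0.75 without it, against 0.01 and 0.00 over all features. The sulfate assimilation share of the 10 genes was 25.5 percent in the condition B library found only in this table, against 15.9 and 12.3 percent in condition A. MET6 over SAM1, as a ratio of RPKM, was 0.274 there, below the 0.527 to 0.586 of the other 3 libraries of the table.

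**Figure D3:**
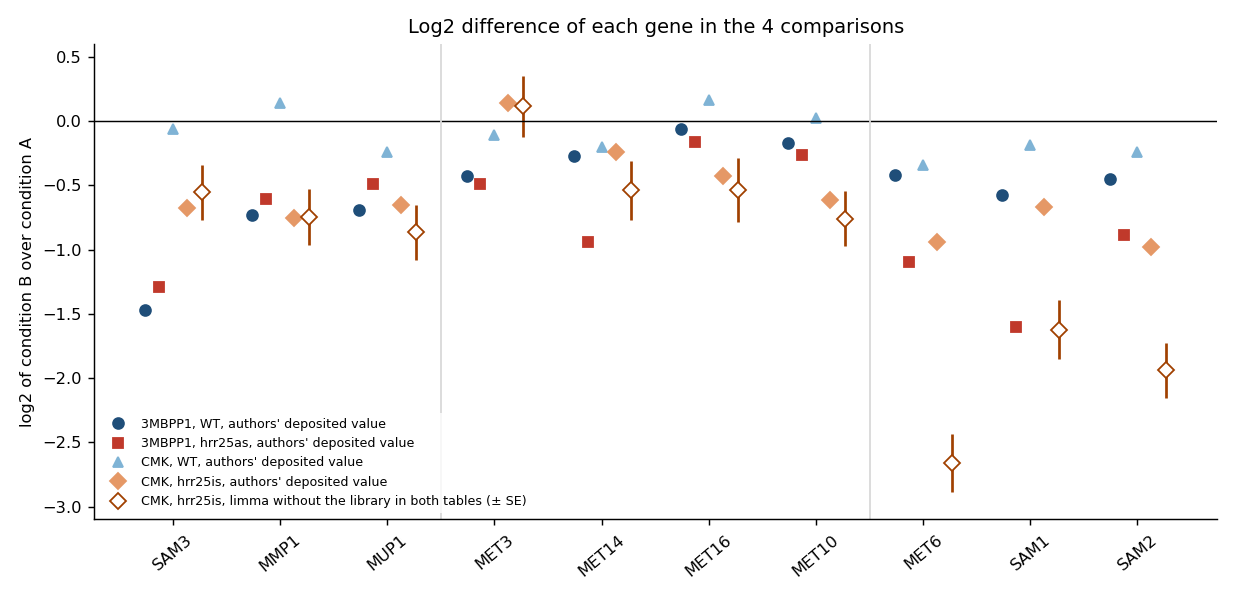
Points give the deposited log2 difference of condition B over condition A for each member in the 4 tables, and open diamonds the limma value ± SE for hrr25is without the shared library. MET6, SAM1 and SAM2 in hrr25is lie at -0.94, -0.67 and -0.98 as deposited and at -2.66, -1.63 and -1.94 without it.

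Set side by side, the tables put different members at the bottom of the list. The CMK tables share a condition B library and cannot be compared as independent. The lowest deposited log2 difference was that of SAM3 in the 3MBPP1 table of WT and of SAM1 in that of hrr25as, and that of MET6 in the CMK table of WT and of SAM2 in that of hrr25is. In hrr25is MET6 was the lowest, not SAM2, by limma, with log2 differences of -1.42 ± 0.68 (SE) against -1.16 ± 0.47 with all libraries and -2.66 ± 0.23 against -1.94 ± 0.21 without the shared one. The values in the authors' deposited tables were -1.47 and -1.29 for SAM3 and -0.58 and -1.60 for SAM1 in the 3MBPP1 tables of WT and hrr25as. The difference between these tables was not tested for either gene. MET16 stayed within -0.43 and 0.17 in the authors' deposited tables, and no setting called it. Of the 10 members, 10, 10, 7 and 9 had deposited log2 differences below 0 in the 3MBPP1 tables of WT and hrr25as and the CMK tables of WT and hrr25is. Counts below 0 follow from the choice of the genes, and MET3 (0.14 in the CMK table of hrr25is) and MMP1, MET16 and MET10 (0.14, 0.17 and 0.02 in the CMK table of WT) were the exceptions.

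Over the 15 libraries, the members followed each other to different degrees. After log2 levels were centred within each table, the correlation of a member with the mean of the others was highest for MUP1 (Pearson r = 0.886), MMP1 (0.881) and SAM1 (0.879). It was lowest for MET16 (0.467) and MET3 (0.612). The points share tables, size factors and the contrasts the genes were chosen on, so these are descriptions. Of 5151 features compared, with a mean of at least 50 reads in every table, profiles among the 5 most like the mean of the 10 members were those of LYS4 (YDR234W, r = 0.950), GLT1 (YDL171C, 0.949), VHT1 (YGR065C, 0.942) and ADE12 (YNL220W, 0.942). LYS4 and GLT1 encode enzymes of lysine and glutamate synthesis, VHT1 the biotin permease and ADE12 an enzyme of AMP synthesis.

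WT and hrr25is can be set side by side in condition A of the CMK tables, since these tables share 1 normalisation. Condition A is also the denominator of the ratios on which the genes were chosen, so the comparison is not independent of that choice, and its values are a description. No member differed between hrr25is and WT at an adjusted p under 0.05 by limma. The comparison called 8 of 6760 features (0.118%), 3 higher and 5 lower in hrr25is, with 453 at an unadjusted p under 0.05. HRR25 and the plasmid markers URA3 and LEU2 were among the 8, at log2 differences of -2.56, -8.19 and 8.88. The form of the kinase, the level of HRR25 and the plasmid therefore differ together between these strains and cannot be told apart. MMP1 lay at 708 and 669.5 normalised reads in WT and 1049 and 1392 in hrr25is. Its log2 difference, hrr25is over WT, was 0.81 ± 0.20 (SE). SAM3 lay at 946 and 1119.6 in WT and at 1466 and 1915 in hrr25is, a log2 difference of 0.70 ± 0.20. MET10 lay at 1284 and 1125 in WT and at 1656 and 2020.3 in hrr25is, a log2 difference of 0.61 ± 0.19. These 3 genes were the members with an unadjusted p under 0.05. MUP1, the third permease, lay at 2346 and 2844 in hrr25is against 2118 and 1931 normalised reads in WT, with a log2 difference of 0.35 ± 0.19. In these 4 genes both hrr25is libraries were above both WT libraries, as in 24.2% of all features, and in MET14 both were below, as in 20.2%. SAM2 (0.45 ± 0.30), MET16 (0.14 ± 0.31), SAM1 (0.11 ± 0.24), MET6 (0.07 ± 0.23), MET3 (-0.16 ± 0.24) and MET14 (-0.34 ± 0.23) made up the rest of the log2 differences, none with an unadjusted p under 0.05. The median of the 10 log2 differences was 0.25, against 0.01 over all features. On simulated libraries of this comparison over 6760 features, 60% of planted log2 differences of 1 and 99% of those of 2 were called, with 6 false calls, and none smaller were planted. The simulation gave every feature the same extra spread beyond counting error and planted differences only above a minimum read level. These shares therefore need not hold for the real comparison, where the spread differed from gene to gene. The largest difference of a member, 0.81, is below both sizes.

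**Figure D4:**
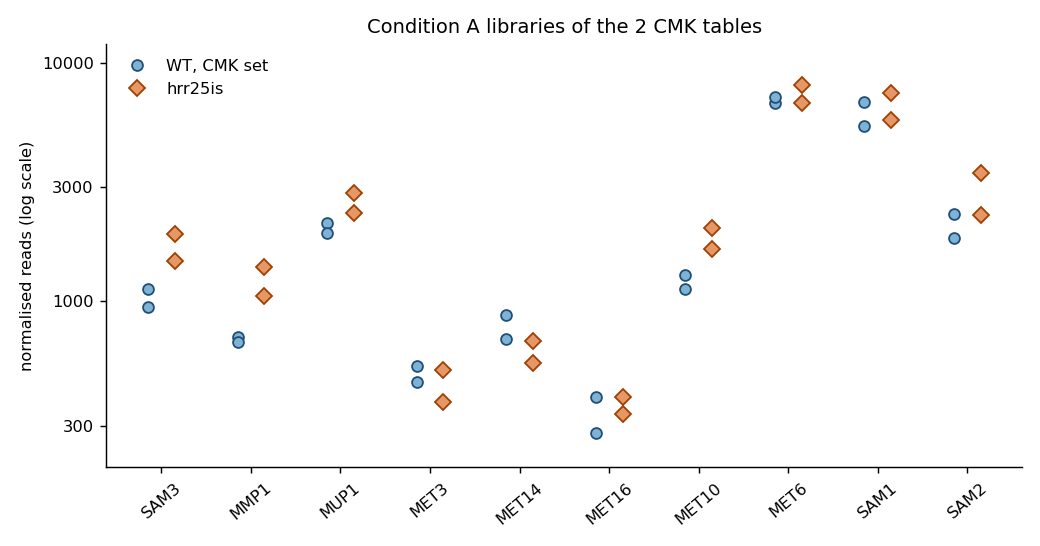
Normalised reads (log scale) of each member in the condition A libraries of the CMK tables, WT beside hrr25is, each point 1 library. SAM3, MMP1, MET10 and MUP1 lie higher in both hrr25is libraries than in both WT libraries, and none passed the limma threshold.

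Beyond the members, 41 other genes of sulfur, methionine and SAM metabolism were read in the same way, of which 40 were listed for hrr25as. For 3MBPP1 in WT the authors' deposited table called 5 of them lower and 0 higher, where 4.59% and 2.78% of all features were called lower and higher. HOM3, the aspartate kinase that opens the path to homoserine, lay at 1365 and 1448 normalised reads in condition A and 596 and 835 in condition B. In the authors' deposited table it fell by 0.97 on the log2 scale with an adjusted p of 3.49e-05. SAM4, which methylates homocysteine with SAM and lies next to SAM3 on chromosome XVI, lay at 1211 and 1210.3 normalised reads in condition A and 701 and 773 in condition B. In the authors' deposited table SAM4 fell by 0.72 (adjusted p = 0.00521). MHT1, which methylates homocysteine with S-methylmethionine and lies next to MMP1, had 297 and 291 normalised reads in condition A and 231 and 267 in condition B, a deposited log2 difference of -0.24 in the authors' deposited table (adjusted p = 0.797). The other 3 were MUP3, a low-affinity methionine permease, SUL2, a sulfate permease, and MET1, which makes the siroheme of sulfite reductase. In the authors' deposited table they fell by 0.73, 0.66 and 0.62. For 3MBPP1 in hrr25as HOM3 alone was called, where 3.12% and 1.2% of all features were called lower and higher. It fell by 1.13 in the authors' deposited table (adjusted p = 0.0152) from 1159 and 963 to 512 and 459.8 normalised reads. No gene of the 41 was called in either CMK table as deposited, where at most 0.133% of all features were called in a direction. At an unadjusted p under 0.05 in the authors' deposited tables there were 1 in WT and 2 in hrr25is, where 1.01% and 2.28% of all features had one. The median deposited log2 differences of these pathway genes were -0.27, -0.30, -0.07 and -0.11 in the 4 tables. Without the shared library, limma called 4 of them lower and 2 higher for CMK in WT, where it called 3.61% and 7.8% of all features, and 7 lower and 1 higher for CMK in hrr25is, where it called 7.5% and 5.25%, each with 1 library in condition B. The median log2 differences of the 41 genes were then -0.18 in WT and -0.19 in hrr25is. Transcripts of the regulators MET4, MET28, MET31, MET32, CBF1 and MET30 had log2 differences between -0.32 and 0.12 in the authors' deposited table of 3MBPP1-treated WT and between -0.31 and 0.11 in that of hrr25as. In the CMK comparisons of the authors' deposited tables they lay between -0.05 and 0.65 in WT and between -0.13 and 0.36 in hrr25is. Without the shared library the limma values lay between -0.18 and 1.24 in WT and between -0.06 and 0.57 in hrr25is. None of these 6 was called as deposited or without the shared library.

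**Figure D5:**
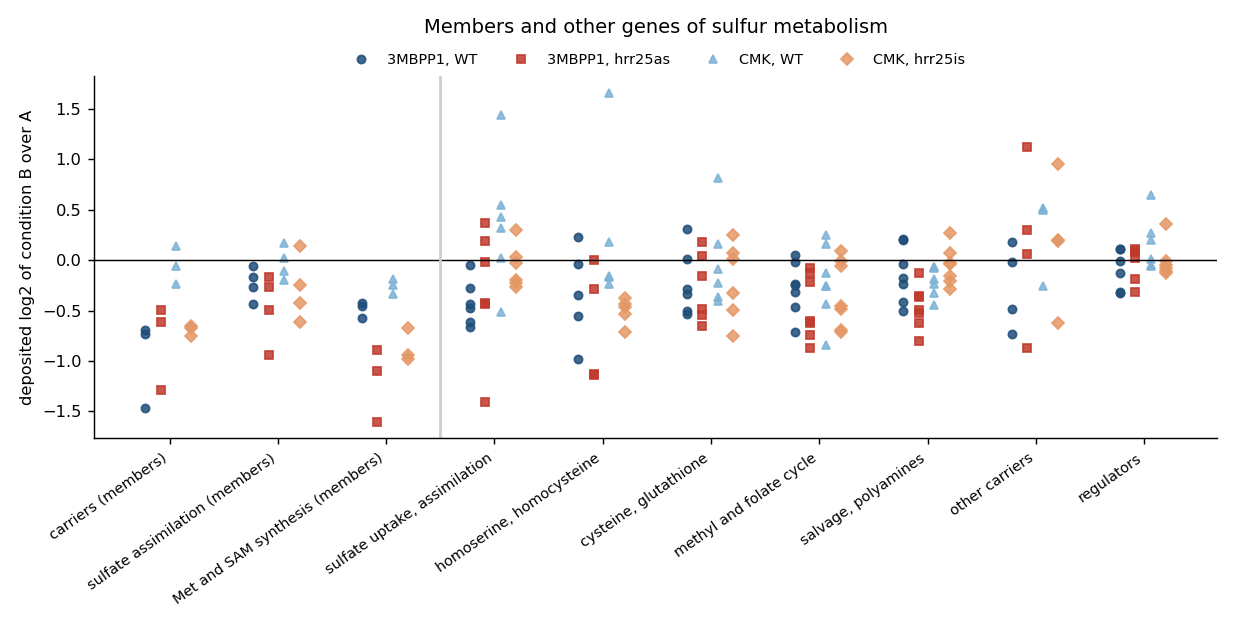
Each point is the deposited log2 difference of condition B over condition A of 1 gene, for the 3 groups of members (left of the grey line) and the groups of the 41 other genes, with a symbol for each of the 4 tables. In the 3MBPP1 table of WT the members' median is -0.44, against -0.27 for the other genes.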

How the data were processed

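The members and all gene lists were chosen with earlier results of these data known. The submitters' processing notes name the tools STAR 2.3.0, HTSeq 0.6.0 and CASAVA 1.8.2 and the build sacCer3. The deposited tables hold, per the file headers, a mean signal of normalised counts over each table and for each condition, a fold change that is the ratio of the condition B mean to the condition A mean, its log2 value, and the p-value and adjusted p-value of the authors' DESeq comparison, its version not given in the sources used here. For lack of counts per sample, the plan fell back on these comparisons.

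Whole reads were recovered by solving each deposited condition mean for 2 whole counts and the size factors of their libraries, and 100% of means in each of the 4 tables had 1 solution. The solver also recovered 100% of means tested on simulated data. Normalised reads are recovered reads divided by the size factor. The R package limma 3.58.1 (R 4.3.3, trend, moderated) was run on log2(normalised reads + 0.5) over all features with Benjamini-Hochberg adjustment at 0.05, as an alternative to the deposited test and to set the strains side by side in condition A, where the distinct condition B libraries shared the estimate of spread. The size factors of the CMK tables equal 1 joint normalisation, while the 3MBPP1 tables were scaled separately. Apart from LEU2, URA3, HRR25 and LYS2, normalised reads are therefore compared only within a table or between the CMK tables. RPKM used recovered reads, all counted reads and RefSeq coding length. Identifiers matched RefSeq R64 for 5879 of 6834, 5672 of 6258 and, in both CMK tables, 5867 of 6760 features; motifs were searched with Biopython 1.88. The strand setting of the counting is not stated.

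All 10 members are named in every table, the other pathway genes where an authors' adjusted p passed, SAM4 and MHT1 as neighbours of members, and the 5 features most like the members' mean profile, of which 1 is not reported here. MHT1 was chosen for its place, after its values were seen, and HRR25, LEU2, URA3 and LYS2 because they touch a member result. Alternatives were the test, total reads, a pseudocount of 5, a mean of at least 10 reads, and leaving out each library or the shared one.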

Additional observations from a re-analysis of the deposited data

Results flagged for a closer look

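MMP1, the S-methylmethionine permease, had log2 differences of opposite sign in the CMK tables. In the authors' deposited table of WT its log2 difference was 0.14, with both condition B libraries above both of condition A, and in that of hrr25is it was -0.75, with both below. The difference between the strains was not tested, since the tables share a condition B library, in which MMP1 lay at 727 normalised reads. The shared library goes against its hrr25is label, and the other condition B library lay at 792 in WT and 718 in hrr25is. Condition A was at 708 and 669.5 in WT and 1049 and 1392 in hrr25is. The tables thus differed more in condition A than in condition B. Without the shared library the log2 differences were 0.20 ± 0.32 (SE) in WT and -0.75 ± 0.22 in hrr25is, each against 1 condition B library.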

How the results depend on the processing

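The call of SAM3 for 3MBPP1 in WT and of SAM1 for 3MBPP1 in hrr25as held at every setting tried. The settings reuse the data on which the genes were chosen, so this describes the processing and adds no support. For 3MBPP1 in WT, 3 members were called, 1 with total reads and 1 to 6 with limma when a library was left out, and the 504 calls of the authors' test over all features, 575 by limma with all libraries, ranged by limma from 132 to 689 when a library was left out, with 132 without the smaller and 206 without the larger condition A library. For 3MBPP1 in hrr25as, 1 member was called and 1 to 4 when a library was left out, and the 270 calls of the authors' test over all features, 216 by limma with all libraries, became by limma 70 with total reads and 233 to 506 when a library was left out (454 and 506 without the smaller and larger condition B libraries). For CMK in WT, the 9 calls over all features became 0 with limma at the authors' size factors, with total reads, with a pseudocount of 5 and with a mean of at least 10 reads, 9 to 56 when another library was left out (29 without the smaller of condition A), and 771 without the shared library. The 0 members called there had 0 at these settings too. For CMK in hrr25is, 0 members were called, 0 to 2 when another library was left out and 6 without the shared library, and the 3 calls over all features became 0 at the same 4 limma settings, 1 to 146 when another library was left out and 862 without the shared one. Between the strains in condition A, the 8 calls became 15 with total reads, 86 with the condition A libraries alone and 2 to 16 when a library was left out, and no member was called at these settings. The log2 differences of MET16, MET6 and SAM1 there turned to -0.19, -0.26 and -0.23 with total reads, which moved the median of all features to -0.32. When a condition A library was left out they ranged from -0.11 to 0.39 for MET16, from -0.054 to 0.20 for MET6, from -0.086 to 0.30 for SAM1 and from -0.39 to 0.060 for MET3. The negative ends came without the smaller WT library for MET16 and without the larger hrr25is library for the others, SAM1 was also at -0.061 without the larger WT library, and MET3 at 0.060 without the smaller hrr25is library. The cause of these changes was not tested. No paired analysis was possible because the recovered libraries carry no replicate number and a size factor is not a label. Fits that leave 1 library in a condition assume that it varies like the others, so their calls have no replicate in that condition. The depth of 60 reads limits MET16 most.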
